A study of Mus musculus with 6 samples.

Results

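The spondins and thrombospondins are here a list of 9 genes, Spon1, Spon2, Thbs1, Thbs2, Thbs3, Thbs4, Comp, Thsd1 and Thsd4, among the 41819 genes of the mouse count table. The list is called the family for short, though it is not a single gene family. The family was chosen from measured values, since Spon2 was one of the few genes that stood higher in the hPARG cells in earlier results of these data. The other 8 genes were taken by name as its relatives. For that reason the difference of Spon2 between the groups is described below without a test. Where a fit of all genes calls Spon2, the call is no result. All 9 genes are in the table, and 6 of them (Spon2, Spon1, Thbs1, Thbs2, Thbs3 and Thsd1) had enough counts to be among the 11509 genes tested.

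The RNA came from 6 dishes of 3T3 cells, a line of Swiss albino mouse embryonic fibroblasts that the labels call malignant. All 6 dishes held 1 puromycin-selected clone carrying a lentiviral pLVX-TetOne cassette for human PARG with cleavable mClover3. PARG is the glycohydrolase that breaks down poly(ADP-ribose). The 3 control dishes were grown for 72 hours without doxycycline, and the 3 hPARG dishes with 500 ng/ml of it. The labels describe wells of a 6-well plate and the methods 10 cm dishes. They are called dishes here. The dishes are cultures of 1 clone, so the p-values measure the spread between cultures of that clone. The RNA-seq had no doxycycline-treated cells without the cassette, so an effect of doxycycline and one of hPARG cannot be told apart. The table holds mouse genes, and the cassette has no row of its own. Mouse Parg had 1032 to 1317 counts in the control and 1095 to 1400 in the hPARG dishes.

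Thrombospondins are secreted, multimeric glycoproteins of the matrix around cells, which act more as signals to cells than as scaffold. THBS1 and THBS2 form trimers and carry thrombospondin type 1 repeats, short domains rich in tryptophan and cysteine that bind CD36 on endothelial cells and, in THBS1, activate latent TGF-beta. THBS3, THBS4 and COMP form pentamers and lack these repeats. The F-spondin SPON1 and the small spondin SPON2 (mindin) share the type 1 repeat but belong to another family. SPON2 binds integrins and is known as a pattern recognition molecule of innate immunity. THSD1 is a membrane protein of endothelial cells with a type 1 repeat, and THSD4 (ADAMTSL6) is a matrix protein that binds fibrillin microfibrils.

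The coding sequences set the members apart in the same way. In the longest complete coding transcript of each gene in GENCODE M21 (GRCm38), the motif Trp-x-x-Trp, at which type 1 repeats are C-mannosylated, was found 7 times in Spon1, 6 times each in Thbs1 and Thbs2, 2 times each in Thsd1 and Thsd4, once in Spon2, and 0 times in Thbs3, Thbs4 and Comp. In Thbs1 and Thbs2 the 6 matches fell into 3 stretches of overlapping matches. A match is only these letters in the translated sequence and need not lie in a type 1 repeat. The 60 coding bases around the first Spon1 match, at residue 289, hold no cysteine codon. Spon2 encodes the shortest protein of the 9, with 330 residues against 755 to 1172 in the others. Its coding sequence has 8 cysteine codons, while those of Thbs1 and Thbs2 have 70 and 68. The 60 coding bases around the single motif of Spon2 are printed with 3 counterparts to show what the members share. The stretches of Spon1 and Thbs2 are those most like that of Spon2, and the stretch of Thbs1 is the fourth match, as in Thbs2. The capitals mark the 4 codons of the motif, and each sequence is written 5′ to 3′ along the coding strand.
Spon2: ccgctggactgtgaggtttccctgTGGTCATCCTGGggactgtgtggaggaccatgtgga
Spon1: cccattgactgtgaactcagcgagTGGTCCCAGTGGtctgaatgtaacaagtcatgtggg
Thbs2: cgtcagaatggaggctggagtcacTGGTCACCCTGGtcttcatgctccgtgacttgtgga
Thbs1: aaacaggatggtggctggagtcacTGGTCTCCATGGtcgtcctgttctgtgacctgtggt

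The Spon2 stretch lies in the coding part of exon 6 of 6, at chr5:33214582-33214641 on the minus strand. That of Spon1 runs over the end of exon 14 and the start of exon 15 of 16, between chr7:114034319-114036607 on the plus strand. The Thbs2 stretch is in exon 9 of 22, at chr17:14681354-14681413 on the minus strand, and the Thbs1 stretch is in exon 9 of 22, at chr2:118118164-118118223 on the plus strand. Spon2 shared 32 of the 60 bases (53.3%) with Spon1, 28 (46.7%) with Thbs2 and 27 (45%) with Thbs1. Of all the Thbs1 stretches the sixth was the one most like that of Spon2, at 29 bases (48.3%), so the order of Thbs1 and Thbs2 turns on the stretch taken. Thbs1 and Thbs2 shared 47 of 60 (78.3%) with each other.

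The libraries held 21619908 to 25263818 counts, so that 3 counts correspond to 0.119 to 0.139 CPM, where CPM stands for counts scaled to a common library size. CPM values are TMM-normalized and serve to compare dishes, while RPKM, as deposited, is per length and serves to compare genes. The dishes numbered 2 of both groups stood apart from the rest. Along the leading principal component of the log2 CPM values, control 2 lay at 21.6 and hPARG 2 at 24.7, against -27.4 to -3.17 in the other 4. The deviation of a gene from its group mean was higher for longer exon length in these dishes, with a Spearman rho across genes of 0.53 and 0.521, and lower in the other 4, at -0.513 to -0.252. The difference of each member is therefore also given without both dishes numbered 2. Of the 11509 genes, 10 (0.0869%) were called at an FDR under 0.05 and over 2-fold by edgeR's quasi-likelihood test, 1 higher and 9 lower in the hPARG dishes.

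Of the 9 fibroblast markers 8 passed the filter, and Fap had at most 1 count in any dish. The 9 fibroblast markers, with Vim highest at a mean of 1548 RPKM, summed to 3065 to 3494 RPKM in the control and 3241 to 3715 in the hPARG dishes. All hPARG dishes were above the control dishes for Col1a1 (log2 fold change 0.58), Col3a1 (0.39) and Thy1 (0.30) and below for Pdgfra (-0.40), with an FDR of 0.946 to 0.999 in edgeR. Over all tested genes, 3.61% had all hPARG dishes above and 6% had all below. The part of the fibroblast markers in the members' differences was not tested. The 5 endothelial markers summed to at most 0.247 RPKM in any dish, with Emcn at 0. The 3 platelet and megakaryocyte markers reached 0.765 to 0.903 RPKM in control and 0.888 to 1.24 in hPARG dishes. The 6 chondrocyte and tendon markers came to 8.96 to 10.6 and 7.27 to 7.89 RPKM, nearly all of it Sox9, while Acan, Tnmd and Matn3 were at 0. Sox9 was also below the control dishes in all hPARG dishes (log2 fold change -0.31, FDR = 0.965, edgeR). The 5 leukocyte markers summed to 0.415 to 0.855 RPKM, with Adgre1 at 0, and the 4 epithelial markers to 0.00822 to 0.139. None of the tested markers was called. In bulk RNA, fewer cells expressing a gene and less RNA per cell cannot be told apart.

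The family's RNA was mostly Thbs1. Its mean over the 6 dishes was 75.2 RPKM, which is 89.4% of the summed RPKM of the 9 members and lies at the 92.8th percentile of the tested genes. Thbs3 followed at 5.1 RPKM, Spon2 at 2.6 and Thbs2 at 0.978. The 2 lowest tested members were Thsd1 at 0.179 and Spon1 at 0.0728 RPKM. The ranges over dishes of Thbs3 and Spon2 overlapped, as did those of Spon2 and Thbs2, whereas Thbs1 stood above all others in every dish. The order of the 6 tested members was the same in the control and the hPARG dishes.

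**Figure D1:**
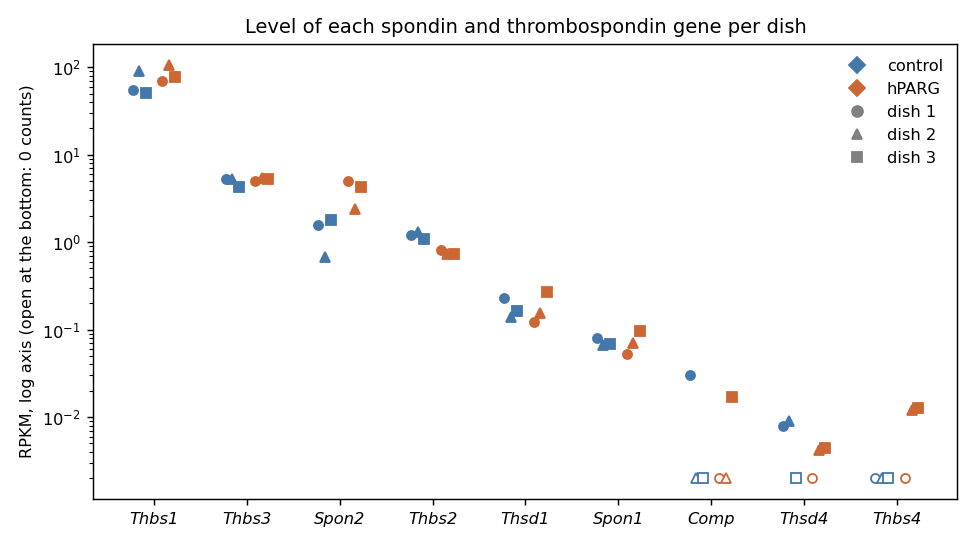
Level of each of the 9 genes in each dish, as deposited RPKM on a log axis, with color for the group and marker shape for the dish number. Open markers at the bottom stand for 0 counts. Thbs1 lies between 51 and 107 RPKM in every dish, and Comp, Thsd4 and Thbs4 do not exceed 0.0302.

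Thbs4, Comp and Thsd4 were near the limit of these libraries. Thbs4, which encodes a pentameric thrombospondin of muscle, tendon and nerve, had 0 counts in each control dish and 0, 1 and 1 in the hPARG dishes. Comp, the cartilage oligomeric matrix protein, had 2, 0 and 0 counts in control and 0, 0 and 1 in hPARG dishes. Thsd4 had 2, 2 and 0 against 0, 1 and 1. All these counts lie under the floor of 3, and no fold is given.

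Spon2 (ENSMUSG00000037379, chr5:33198184-33218455, minus strand) was the member with the largest difference between the groups. It had 92, 35 and 90 counts in control dishes 1, 2 and 3, and 253, 133 and 223 counts in hPARG dishes 1, 2 and 3. In RPKM the control dishes stood at 1.57, 0.676 and 1.78, and the hPARG dishes at 4.95, 2.39 and 4.23. Every hPARG dish was above every control dish. In each group the dish numbered 2 was the lowest. The mean CPM was 3.11 ± 1.43 (SD, n = 3) without and 9.1 ± 3.21 (SD, n = 3) with doxycycline. This was a log2 fold change of 1.55 with a standard error of 0.396, or 2.92-fold.

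The dishes numbered 2 lay further from the other dishes of their group for Spon2 than most genes did. Control 2 differed from the mean of controls 1 and 3 by -1.33 on the log2 CPM scale, and hPARG 2 differed by -0.98. The central 95% of all tested genes ran from -0.69 to 0.73 in control and from -0.72 to 0.66 in hPARG cells. The exact 95% Poisson interval of the 35 counts in control 2 was 24.4 to 48.7 and did not reach those of the other 2 control dishes, 74.2 to 113 and 72.4 to 111. Such intervals cover counting error only. Without both dishes numbered 2 the log2 fold change of Spon2 was 1.49 (standard error 0.181, n = 2 per group), so the difference was about as large with those dishes as without them.

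**Figure D2:**
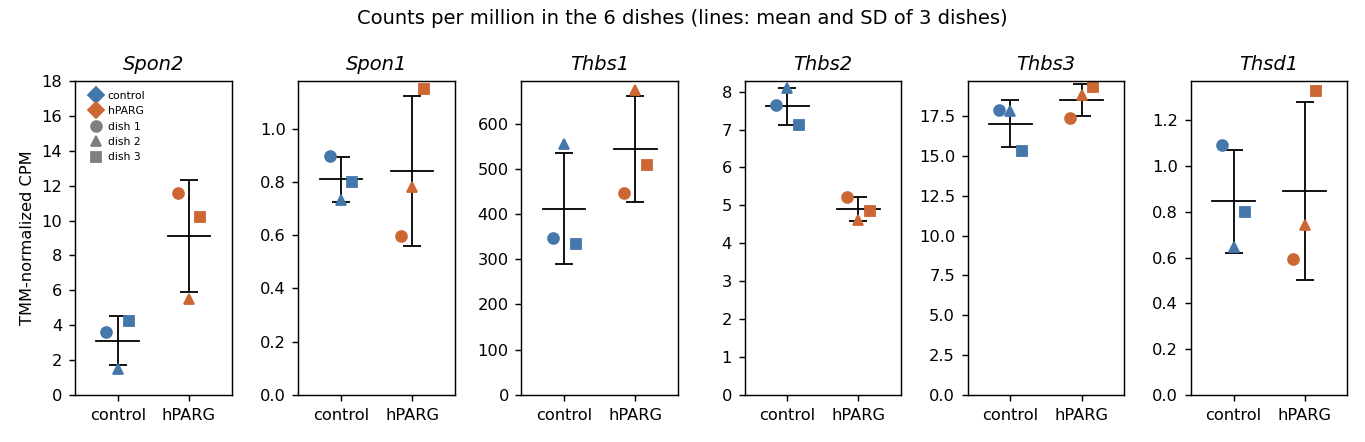
TMM-normalized CPM of the 6 tested members in each dish, on linear axes that start at 0, with marker shape for the dish number and lines for the mean and SD of 3 dishes. For Spon2 all hPARG dishes lie above the control dishes and in Thbs2 all lie below, while the other 4 members overlap.

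Thbs2 differed in the opposite direction. It encodes the trimeric relative of THBS1 that is best known for its part in collagen fibril assembly and in limiting blood vessel growth. The control dishes held 196, 188 and 151 counts and the hPARG dishes 114, 112 and 106. Each hPARG dish was below each control dish, and within each group the dishes lay close together. The mean CPM was 7.62 ± 0.486 (SD, n = 3) in the control and 4.9 ± 0.307 (SD, n = 3) in the hPARG dishes. The log2 fold change of Thbs2 was -0.64 with a standard error of 0.132 and a 95% interval of -0.94 to -0.33. It did not pass the threshold over all genes, with an FDR of 0.419 and an unadjusted p of 0.00139 in edgeR's quasi-likelihood test. The FDR was 0.0646 with DESeq2 and 0.0163 with edgeR's likelihood ratio test, where the change is still under 2-fold. Without both dishes numbered 2 the log2 fold change was -0.55 (FDR = 0.485, edgeR).

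Thbs1 had the highest level and a spread that spanned the groups. It encodes the platelet and fibroblast thrombospondin that binds CD36 and CD47. The control dishes held 8922, 12887 and 7087 counts, and the hPARG dishes 9748, 16390 and 11098. The dish numbered 2 was the highest of each group, by 0.70 on the log2 CPM scale in control and by 0.50 in hPARG cells over the mean of the other dishes. Control 2 was above hPARG dishes 1 and 3 in CPM, so that the groups overlapped. The CPM was 412 ± 123 (SD, n = 3) against 544 ± 118 (SD, n = 3). Thbs1 had a log2 fold change of 0.40 with a standard error of 0.232, a 95% interval of -0.14 to 0.94 and an FDR of 0.999 (edgeR). Without both dishes numbered 2 the groups of 2 did not overlap, and the log2 fold change was 0.49 (standard error 0.102, FDR = 0.0791, edgeR). Of the exon bases of Thbs1, 3.42% overlap the antisense gene Gm29233.

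For Thbs3, a pentameric thrombospondin of the growing skeleton, the dishes were close to one another. It had 458, 413 and 324 counts in control and 379, 456 and 420 in hPARG dishes. The CPM was 17 ± 1.47 (SD, n = 3) and 18.5 ± 0.985 (SD, n = 3), and the groups overlapped. The log2 fold change was 0.12 with a 95% interval of -0.14 to 0.38 (FDR = 0.999, edgeR), and 0.15 without both dishes numbered 2. The gene shares 6.59% of its exon bases with Mtx1 on the opposite strand, and the use of strand in the counting is not given in the sources used here.

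Spon1 and Thsd1 were detected at a few counts per library. Spon1, an extracellular adhesion protein of the nervous system that also binds the amyloid precursor protein, had 23, 17 and 17 counts in control and 13, 19 and 25 in hPARG dishes. Thsd1 had 28, 15 and 17 against 13, 18 and 29. Both genes overlapped between the groups. The log2 fold change of Spon1 was 0.05 with a 95% interval of -0.73 to 0.83, and that of Thsd1 was 0.06 with an interval of -0.86 to 0.98 (edgeR). Without both dishes numbered 2 these values were 0.04 and 0.02. Both intervals hold changes of either sign, so these dishes do not give the direction of either gene.

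**Figure D3:**
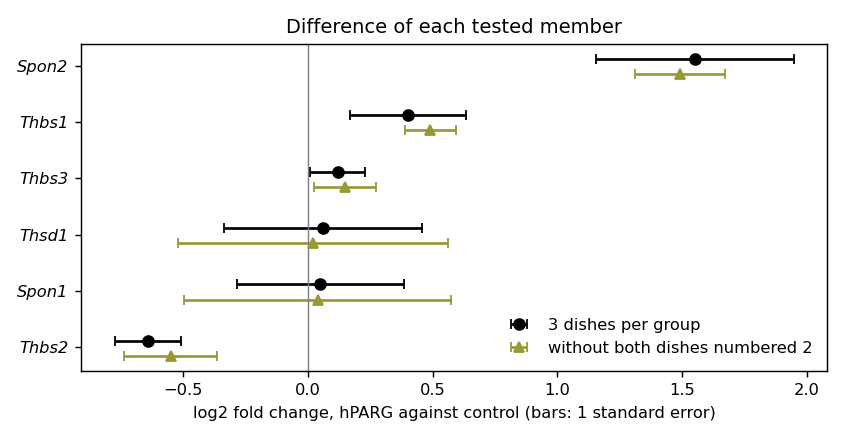
Log2 fold change of each tested member, hPARG against control, with bars of 1 standard error, for all dishes (circles) and without both dishes numbered 2 (triangles). Spon2 is at 1.55 and 1.49, Thbs2 at -0.64 and -0.55, and the other 4 members lie between 0.02 and 0.49.

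Among the 5 tested members other than Spon2, 0 were called by edgeR's quasi-likelihood test and 0 by DESeq2, and 1 (Thbs2) had an unadjusted p under 0.05, beside 3.95% of all tested genes. By dishes, 0 of these 5 had all hPARG dishes above the control dishes, against 3.61% of tested genes, and 1 (Thbs2) had all below, against 6%. Spon2 had all above, which is the contrast that led to its choice and is not read against that share. In all, 9.62% of tested genes had groups that did not overlap. With deposited RPKM in place of CPM Spon2 and Thbs2 were again the members apart, while over all genes 266 were above and 885 below, against 416 above and 691 below with CPM. Without both dishes numbered 2, Thbs1 was apart as well, but so were 35.4% of genes. The median log2 fold change was 0.004 over all tested genes. Over the 6 members it was 0.09, but this includes Spon2 and is not read against that value. The other 5 ran from -0.64 (Thbs2) to 0.40 (Thbs1).

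Ratios between members within a dish do not depend on the scaling of the libraries. The trend with exon length can remain in them, since the members differ in length. In each group the dish numbered 2 had the lowest ratios of Spon2 to Thbs1, Thbs2 and Thbs3. It had the highest ratios of Thbs1 to Thbs2 and Thbs3. The part of exon length in these ratios was not tested. The RPKM ratio of Thbs2 to Thbs3 was 0.232, 0.246 and 0.252 in the control dishes and 0.163, 0.133 and 0.137 in the hPARG dishes, and the groups did not overlap. Thbs2 alone already had all hPARG dishes below the control dishes. The separation of its ratios with Thbs3 and Thbs1 uses that difference again and is no further result. With 3 dishes against 3, a two-sided exact permutation test cannot give a p below 0.1. The ratio of Thbs1 to Thbs2 was 54.1 ± 13 (SD, n = 3) in the control and 113 ± 31.3 (SD, n = 3) in the hPARG dishes. It ran from 45.9 to 69.1 in control and from 86.2 to 148 in hPARG dishes, without overlap. Spon2 was at 1.3, 0.515 and 1.65 times the RPKM of Thbs2 in the control dishes and at 6.13, 3.28 and 5.81 times in the hPARG dishes. Thbs2 thus stood above Spon2 in control dish 2 and below it in the other 5 dishes. The ratio of Spon2 to Thbs3 was 0.281 ± 0.145 (SD, n = 3) against 0.743 ± 0.285 (SD, n = 3), also without overlap. Spon2 was chosen for standing higher in the hPARG cells. The separation of its ratios to Thbs2 and Thbs3 uses that value again and is no result. The groups overlapped for the ratio of Thbs1 to Thbs3, at 13.2 ± 3.38 (SD, n = 3) and 16 ± 3.11 (SD, n = 3), and for that of Spon2 to Thbs1, at 0.0235 ± 0.0143 (SD, n = 3) and 0.0495 ± 0.0249 (SD, n = 3).

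The RefSeq promoter table (GRCm38.p6) held 5 of the members. Those of Thbs2, whose groups of dishes did not overlap, and of Thbs3, whose groups did, are shown. Each is the 250 bases before the start site, 5′ to 3′ along the strand of the gene, with capitals for matches on either strand to the TATA-box letters TATAAA, to the CCAAT box and to the GC-box letters GGGCGG.
Thbs2: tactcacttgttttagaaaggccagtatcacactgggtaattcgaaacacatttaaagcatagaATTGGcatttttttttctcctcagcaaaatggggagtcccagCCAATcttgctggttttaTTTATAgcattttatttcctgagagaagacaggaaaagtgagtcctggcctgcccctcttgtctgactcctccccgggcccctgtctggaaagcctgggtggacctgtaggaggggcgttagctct
Thbs3: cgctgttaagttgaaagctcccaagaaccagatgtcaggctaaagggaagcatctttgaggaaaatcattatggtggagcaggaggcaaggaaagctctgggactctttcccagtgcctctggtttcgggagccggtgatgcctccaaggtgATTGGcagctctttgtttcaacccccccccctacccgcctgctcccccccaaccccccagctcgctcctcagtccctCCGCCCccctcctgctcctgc

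The Thbs2 sequence is at chr17:14694263-14694512 on the minus strand, with a GC content of 46.8%. It holds CCAAT as written at 144 bases before the start site and on the other strand at 186, and TATAAA on the other strand at 126. The Thbs3 sequence is at chr3:89214930-89215179 on the plus strand, with a GC content of 58.8%. It holds CCAAT on the other strand at 98 bases and GGGCGG on the other strand at 21 bases before the start site. None of these matches overlaps another. Over the 32851 promoters of the table, searched on both strands in windows that also hold the first 50 bases after the start site, the TATA-box letters were in 13.6%, the CCAAT box in 37.4% and the GC-box letters in 35.7%. The AP-1 letters TGANTCA were in 7.81% of the promoters, those of the NF-kappa-B motif in 1.47% and the E-box letters CACGTG in 7.15%, and none of these were in the Thbs2 or the Thbs3 window. A match is only a run of letters in the window.

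The tested genes around Spon2 had smaller differences. Spon2 was chosen for its large difference, so this contrast was likely for any 5 genes and is no result about the region. Within 250 kb on chromosome 5 the annotation has 10 other genes, of which 5 were tested and 0 were called. At an unadjusted p under 0.05 (edgeR) there were 0, against 3.95% of all genes, a share that 5 genes are too few to be read against. The log2 fold change was -0.06 for Depdc5, for Ywhah and for Maea, 0.05 for Ctbp1 and 0.28 for Uvssa. Without both dishes numbered 2 the 5 values lay between -0.10 and 0.10. Ctbp1, which encodes a transcriptional corepressor, is the nearest tested neighbor, 29268 bases away.

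**Figure D4:**
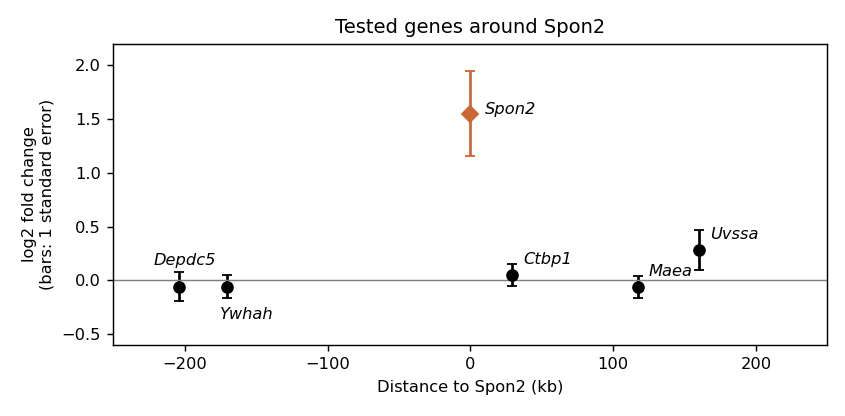
Log2 fold change, hPARG against control, of the tested genes within 250 kb of Spon2, against the distance to Spon2 in kb, with bars of 1 standard error. The 5 neighbors lie between -0.06 and 0.28, and Spon2 (diamond, at 0), which was chosen for its difference, lies at 1.55.

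The dishes also ordered other genes as they did Spon2 and Thbs1. Over the 6 dishes, the log2 CPM of Spon2 was most like that of Cfap36 (Pearson r = 0.997), Glod4 (0.991), Hsdl2 (0.989), Wnt6 (0.984) and Ebpl (0.983). These genes differed far less between groups, with log2 fold changes of 0.21, 0.29, 0.20, 0.53 and 0.27. For Thbs1 the closest were Ncam1 (0.997), Cgnl1 (0.995), Pdlim5 (0.995), Mamld1 (0.993) and Tep1 (0.993), whose log2 fold changes lay between 0.30 and 0.34. In each of these 5 the count was highest in the dish numbered 2 of its group. An r above 0.9 was reached by 138 of the other 11508 genes for Spon2 and by 684 for Thbs1, and all points share the 6 libraries.

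The receptors and partners of the family were described by a list of 23 genes, of which 18 were tested and 0 were called. The median log2 fold change was 0.07. Over all 11509 tested genes, 5863 were above 0 and 5646 below. In the list, whose direction as a set was not tested, 17 genes were above 0 and 1 below. The one below was Cd47, the integrin-associated receptor of THBS1, with 1756, 1886 and 1660 counts in control and 1275, 1453 and 1211 in hPARG dishes. Its hPARG dishes were all below its control dishes, and its log2 fold change was -0.39 with a standard error of 0.103 (FDR = 0.717, edgeR) and -0.36 without both dishes numbered 2. All hPARG dishes were above the control dishes for Sdc4 (0.25), a syndecan, and Cacna2d1 (0.19), a calcium channel subunit that binds thrombospondins, which are named here for that reason. The highest values were 0.47 for Vldlr, a receptor that binds THBS1 and SPON1, and 0.36 for Notch3, which THBS2 binds. Jag1, a Notch ligand, was at 0.01. Calr (calreticulin) and Itgb1 (an integrin chain), both used as receptors by THBS1, had the highest levels of the list at mean values of 340 and 239 RPKM and log2 fold changes of 0.04 and 0.06.

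Of the 12 genes of latent TGF-beta, the growth factor that THBS1 can activate, 10 were tested and 0 were called, with a median of 0.05. Tgfb3 was at 0.29, with all hPARG dishes above the control dishes, and Ltbp3, a latent TGF-beta binding protein, at 0.22. Ltbp2, an elastic fiber protein of the same family, was at -0.46, with all hPARG dishes below, and the coreceptor Tgfbr3 at -0.14. Both Tgfb3 and Ltbp2 had an FDR of 0.999 (edgeR), and without both dishes numbered 2 they were at 0.31 and -0.36. Ltbp1 was at 0.17 with a mean of 44 RPKM.

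The other type 1 repeat proteins numbered 35, of which 11 were tested and 0 were called. Their median was -0.00, with 5 above and 6 below 0. The CCN proteins, secreted regulators of matrix and growth, stood at both ends. Ccn1 had 14987, 16042 and 14053 counts in control and 17445, 19791 and 18632 in hPARG dishes, with a log2 fold change of 0.35 (FDR = 0.927, edgeR). Ccn5 had 394, 306 and 318 counts against 253, 200 and 210, with a log2 fold change of -0.56 (FDR = 0.717, edgeR). Neither overlapped between the groups, and without both dishes numbered 2 they were at 0.41 and -0.51. Adamtsl4, a relative of Thsd4, was at 0.25, the hemicentin Hmcn2 at -0.47, and Ccn4 at -0.10.

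Among 18 other matricellular and matrix proteins 10 were tested and 0 were called, with a median of 0.08. Fibronectin (Fn1) was at 0.40, Sparc at 0.26, osteopontin (Spp1) at -0.27, tenascin-C (Tnc) at -0.17 and biglycan (Bgn) at 0.13. All hPARG dishes were above the control dishes for 1 gene of this list, Sparc. The 6 genes of type 1 repeat glycosylation, the C-mannosyltransferases and the enzymes of O-fucose addition and elongation, had 5 tested and 0 called, with a median of 0.08. Dpy19l3 was at 0.11, the fucosyltransferase Pofut2 at 0.09, the glucosyltransferase B3glct at 0.04 and Dpy19l1 at -0.18.

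Over the 94 genes of the 5 lists, 54 were tested and 0 were called by edgeR or by DESeq2. At an unadjusted p under 0.05 there were 2 higher and 3 lower, against 163 higher and 292 lower of all 11509 (3.95% in all). All hPARG dishes were above the control dishes for 5 of the 54, beside 3.61% of all tested genes. They were all below for 3 of the 54, beside 6% of all tested genes. Whether the lists differ from all genes in this was not tested.

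**Figure D5:**
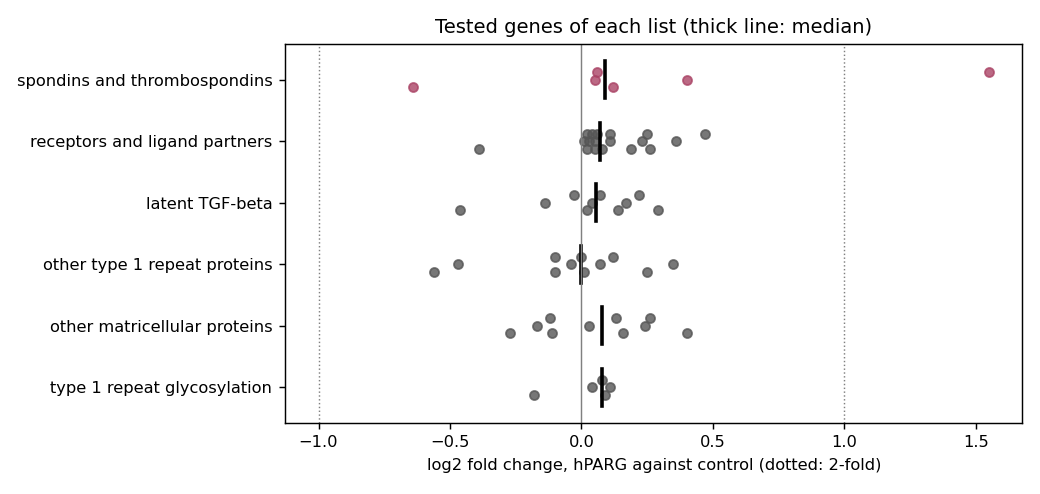
Log2 fold change, hPARG against control, of the tested members and of the tested genes of 5 lists of partners and relatives, 1 point a gene, with a thick line at each median and dotted lines at 2-fold. All 54 genes of the lists lie between -0.56 and 0.47, and of the members Spon2 at 1.55 lies past the 2-fold line.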

How the data were processed

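Poly(A)-selected RNA of 6 dishes was sequenced by the authors as 150 bp paired-end reads, trimmed and mapped to GRCm38 (Ensembl release 96) in CLC Genomics Workbench 12.0, with up to 10 hits per read. The deposited gene counts are raw and were tested here. The deposited RPKM values are per gene length and served to compare levels between genes. The deposited TPM values were not used, nor were the deposited CPM columns, whose sums do not match plain CPM and which were treated as a score of unstated scaling. Columns with the authors' own comparison (largest group mean, fold change, log fold change, p-value, FDR and Bonferroni value) were not used.

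Counts were fitted in edgeR 4.0.16 (R 4.3.3) with TMM factors, filterByExpr (minimum count 10) and the quasi-likelihood test, without a replicate block. Calls needed a Benjamini-Hochberg FDR under 0.05 over all tested genes and over 2-fold. Log2 CPM used a prior count of 2. Alternatives were DESeq2 1.42.0, the likelihood ratio test, other scaling and filters, a spline on exon length, a replicate block and omission of dishes. Overlap between groups was counted with deposited RPKM and without both dishes numbered 2 after the data had been seen.

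All 41819 gene identifiers matched GENCODE M21. The members and lists were chosen with earlier results of these data known. Named genes were all members, the 2 highest, 2 lowest and up to 2 most abundant tested genes of each list, the 5 genes most correlated with Spon2 and with Thbs1, and the tested genes within 250 kb of Spon2. Motifs were searched as letters on both strands, the NF-kappa-B motif with its central bases left free.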

Additional observations from a re-analysis of the deposited data

How the results depend on the processing

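The 10 genes called overall became 22 with DESeq2, 30 with the likelihood ratio test, 16 with no filter on low counts, 19 with the gene length correction and 19 without both dishes numbered 2, and 3 to 13 with 1 dish left out (3 without hPARG dish 1 and 5 without hPARG dish 3). Members called numbered 0, and 1 with DESeq2, the likelihood ratio test and without both dishes numbered 2. That 1 was Spon2, whose value led to the choice of the family, so these calls are no result about it. The cause of the changes in number was not tested. No partner gene was called under any alternative run. The log2 fold change with 1 dish left out ran from 1.22 to 1.82 for Spon2, 0.21 to 0.67 for Thbs1, -0.69 to -0.59 for Thbs2 and 0.05 to 0.17 for Thbs3. It crossed 0 for Spon1 (-0.23 to 0.24) and Thsd1 (-0.34 to 0.30), falling below 0 without control dish 2 or without hPARG dish 3, and Spon1 was at -0.0025 with the length correction. Counts of 13 to 29 limit these 2 genes.

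Dishes with the same number were not shown to be paired: their deviations correlated at 0.0963, 0.61 and 0.168, and control 1 and control 3 correlated best with hPARG 3 (0.207) and hPARG 1 (0.335). With the number as a replicate block 23 genes and 1 member were called (Spon2 again, which chose the family and so is no result), and 25 and 1 with the length correction added, where Spon1 was at -0.03. With the block, the FDR was 0.00486 for Thbs1 and 0.0333 for Thbs2, both under 2-fold.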
